A study of Mus musculus with 8 samples.

Results

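Imprinted genes are transcribed mainly from the copy inherited from the mother or mainly from the copy inherited from the father. The choice is set by DNA methylation that is laid down in the oocyte or in the sperm at short control elements, the germline differentially methylated regions, and that is kept in the embryo by the zinc finger protein ZFP57, its relative ZFP445 and their partner TRIM28. In the germ line the marks of both parents are erased before birth and written anew according to the sex of the animal, so the chromatin of spermatogonia at these loci is of interest on both parental copies.

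The set described here held 43 mouse imprinted genes from 20 clusters. A peak belonged to the set when the deposited gene list of that peak contained one of the 43 symbols exactly. Of the 43 genes, 39 had at least 1 assigned peak, and together they took 704 of 328733 peaks. Overlapping peaks (1 bp or more) from the 8 libraries were joined into merged regions, 163 of them for the imprinted genes of 87144 in all. Of the 163 regions, 32 listed 2 or more of the genes, and 22 genes shared at least 1 region with another. The genes were placed in 3 classes by the known biology of their loci: 20 whose promoter or internal promoter is methylated in oocytes, 9 at loci methylated in sperm, and 14 neighbours in the same clusters. Rtl1, Rian, Mirg and Impact had no peak assigned under these symbols in any library in the table used here.

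Chromatin accessibility was measured by ATAC-seq, in which a transposase cuts open chromatin and adds sequencing adapters, in germ cells of PIWIL2-eGFP mice (Tg(Piwil2/EGFP)1GHan/J). All animals carried this transgene, in which the Piwil2 promoter drives eGFP in germ cells from before birth to early spermatids, and eGFP-positive cells were sorted from the testes of 1 neonatal mouse per library. The labels give the strain as derived from C57BL/6 x 129s4/SvJae and 100000 cells per replicate, and the methods name a C57BL/6 x SJL background and a smaller number of cells. All mice received WIN 18,446, a blocker of retinoic acid (RA) synthesis that holds spermatogonia undifferentiated, for 7 days.

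The 0 h mice were collected with no RA injection, and the other mice 18, 48 or 120 h post-RA, with 2 libraries per timepoint. The study takes 0 h as undifferentiated type A spermatogonia and the later timepoints as successive differentiating stages up to type B. RA, the injection itself and the added age moved together and cannot be told apart. Parental copies were not separated, so every value is the sum of both.

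Each library held between 24643 and 72215 peaks. The 0 h libraries held 72215 and 69089, and the 6 later libraries between 24643 and 39551. The value of a peak is its summit, the highest coverage in a 32-nt bin after the authors had reduced the libraries to an equal number of tags. Equal tags put the libraries on one scale but do not equalise the part of the tags that falls in peaks. Read numbers are not in the peak table and were not used here. Over the 15536 regions where each of the 8 libraries had a peak, the median log2 summit changed by -1.23 at 18 h, -1.36 at 48 h and -0.75 at 120 h, each against 0 h. Differences below are given relative to that shift, with each library centred on its median, unless the deposited scale is named.

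All 6 germ cell markers (Ddx4, Dazl, Piwil2, Zbtb16, Kit and Stra8) had an assigned peak in both libraries of every timepoint. The summed summits of their start regions ranged from 2113 to 2446 at 0 h and from 967 to 2004 later. Of 5 Sertoli cell markers, 5 were accessible at 0 h and 3 or 4 at the later timepoints, with sums of 475 to 620 at 0 h and 56 to 163 later. Of 5 Leydig cell markers 2 were accessible at 0 h and 0 later, of 4 peritubular markers 4 and then 3, of 4 immune markers 2 and then 1, and of 4 endothelial markers 4 at 0, 18 and 48 h and 3 at 120 h. The sums for these lists at 0 h were 74 to 77, 393 to 458, 166 to 208 and 185 to 266. At 120 h they were 0, 86 to 276, 0 and 38 to 40. Start regions of Rhox5, Cyp17a1, Hsd3b1, Insl3, Star, Pdgfra, Ptprc, Adgre1, Pecam1 and Cdh5 had no peak within 1000 bp. Of these, Hsd3b1 and Adgre1 were in no peak's gene list under these symbols. Accessible somatic markers were thus most numerous at 0 h, as were all peaks, and their part in the results below was not tested. Single markers differed: after centring, the Sertoli cell marker Wt1 and the endothelial marker Kdr were lower at 120 h than at 0 h (limma adjusted p = 0.0415 and 0.0119), whereas the peritubular marker Acta2, with 97 and 98 at 0 h and 147 and 86 at 120 h, was higher (1.10, limma adjusted p = 0.0115). The germ cell markers Kit and Stra8, which rise as spermatogonia differentiate, were higher than at 0 h from 18 h on (1.37 and 1.45 at 18 h, limma adjusted p = 0.00264 and 0.00316).

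The 6 regions below cover control elements of these clusters and are shown first because they carry the letters TGCCGC, the sequence that ZFP57 recognises when it is methylated. Each sequence is the plus strand of the mouse reference GRCm38 (mm10), from RefSeq, around the highest summit of the region, with TGCCGC or its reverse complement GCGGCA in capitals.
Peg3/Usp29, intron of Peg3, chr7:6729419-6729718: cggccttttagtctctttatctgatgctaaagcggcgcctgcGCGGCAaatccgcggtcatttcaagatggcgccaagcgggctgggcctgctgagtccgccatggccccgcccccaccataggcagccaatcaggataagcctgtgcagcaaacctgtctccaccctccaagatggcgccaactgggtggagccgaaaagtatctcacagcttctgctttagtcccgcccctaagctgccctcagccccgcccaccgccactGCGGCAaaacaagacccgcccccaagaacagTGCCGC
Snrpn/Snurf, intron, chr7:60004171-60004470: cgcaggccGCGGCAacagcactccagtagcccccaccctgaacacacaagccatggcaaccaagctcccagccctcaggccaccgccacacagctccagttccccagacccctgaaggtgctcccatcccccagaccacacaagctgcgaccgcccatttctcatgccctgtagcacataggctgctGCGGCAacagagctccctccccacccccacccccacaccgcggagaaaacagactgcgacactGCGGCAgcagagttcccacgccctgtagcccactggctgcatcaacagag
Peg13/Trappc9, exon of the non-coding Peg13, chr15:72809931-72810230: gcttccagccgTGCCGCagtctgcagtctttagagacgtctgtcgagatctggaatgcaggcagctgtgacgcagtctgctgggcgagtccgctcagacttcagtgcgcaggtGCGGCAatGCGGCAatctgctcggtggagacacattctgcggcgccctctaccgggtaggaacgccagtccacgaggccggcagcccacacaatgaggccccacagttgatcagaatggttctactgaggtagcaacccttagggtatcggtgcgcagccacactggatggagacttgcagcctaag
H13/Mcts2, upstream of Mcts2 in an H13 intron, chr2:152686763-152687032: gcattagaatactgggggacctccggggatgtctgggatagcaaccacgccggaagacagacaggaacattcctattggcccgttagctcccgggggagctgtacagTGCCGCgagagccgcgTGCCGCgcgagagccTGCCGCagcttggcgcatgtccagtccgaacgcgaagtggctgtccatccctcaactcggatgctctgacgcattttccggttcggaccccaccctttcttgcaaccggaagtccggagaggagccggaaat
Grb10, intron, chr11:12026219-12026518: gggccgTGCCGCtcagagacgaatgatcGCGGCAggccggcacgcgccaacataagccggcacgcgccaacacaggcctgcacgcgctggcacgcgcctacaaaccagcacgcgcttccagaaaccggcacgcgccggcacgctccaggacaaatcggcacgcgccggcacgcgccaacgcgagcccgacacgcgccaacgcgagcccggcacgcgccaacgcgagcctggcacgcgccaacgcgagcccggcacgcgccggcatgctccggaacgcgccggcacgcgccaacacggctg
Airn/Igf2r, exon of the non-coding Airn inside Igf2r, chr17:12741195-12741494: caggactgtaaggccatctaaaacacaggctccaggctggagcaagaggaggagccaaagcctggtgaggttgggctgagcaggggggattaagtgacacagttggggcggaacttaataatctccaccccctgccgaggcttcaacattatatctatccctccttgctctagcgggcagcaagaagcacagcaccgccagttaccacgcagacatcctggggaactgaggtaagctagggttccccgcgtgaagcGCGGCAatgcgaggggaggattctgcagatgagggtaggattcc

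TGCCGC was found on either strand in the 300 bp around the summit of 31 of the 163 imprinted-gene regions (19%), beside 10.1% of all regions. Among regions with a peak in every library it was found in 12 of 36 (33.3%), beside 18.8%. The imprinted-gene regions also had a higher GC content (median 55.3% against 51.7%) and more CpG dinucleotides in that window (median 10 against 6). Among regions with a peak in every library these medians were close, at 61.7% against 61% and 19.5 against 19. Over the whole merged region, the matches were most numerous at the Airn start (8), the Snurf intron (7), the Mest region at +4606 bp and the Inpp5f region at +77083 bp (6 each) and the Nap1l5 start (5), where distances are from the gene start as deposited. For CTCF, the insulator protein of the H19 locus, 1 string of 14 letters was looked for in the 300 bp around the summit. That string was found in 0 of the 163 regions and in 11 of all 87144 (0.0126%). Because the string was so rare over all regions, the 0 cannot show whether the 163 regions lack CTCF sites. GCCATNTT, the YY1 core looked for after the Peg3 sequence had been seen, was in 7.98% of the imprinted-gene regions and 5.78% of all regions, with 2 matches in the Peg3 window printed above. No motif contains another, and a match in these letters is a description only.

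Most of the imprinted genes were accessible throughout spermatogonial development. With a gene counted at a timepoint when both libraries held an assigned peak, 31 of the 43 genes were accessible at all 4 timepoints. That is 79.5% of the 39 with an accessible timepoint, beside 72.8% of all 20673 such genes. H19, the maternally expressed non-coding RNA next to Igf2, and Phlda2, a growth-limiting gene of the placenta, were accessible at 0 h only, which is 5.13% of the 39 beside 12.9% of all such genes. Mest was accessible at 0 and 120 h, Peg12 at 0, 18 and 120 h, Ndn and Dlk1 at 0, 18 and 48 h, and Igf2 and Slc22a18 at 0, 48 and 120 h. No imprinted gene was accessible at a later timepoint without being accessible at 0 h. Such genes were rare among all 20673: 39 at 120 h only, 8 at 18 h only and 4 at 48 h only. A further 13 were accessible at 18 and 120 h, 5 at 18, 48 and 120 h, and 4 at 48 and 120 h. Their absence is thus not particular to the imprinted genes. The count at 0 h only was 1 without 120 h replicate 2, since the other 120 h library held a Phlda2 peak.

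The imprinted genes had more peaks at 0 h than in any later library. The number of assigned peaks was 136 and 128 at 0 h, followed by 68 and 85 (18 h), 64 and 76 (48 h), and 90 and 57 (120 h). The 0 h libraries were the highest of the 8 and did not overlap with any later library. The mean was 132.0 ± 5.66 (SD, n = 2) at 0 h and 73.33 ± 12.7 (SD, n = 6) later, a difference of 58.67 peaks (exact permutation test, two-sided, p = 0.0714, the smallest p that 28 splits of 2 against 6 can give). Because all peaks were fewer later, the share went the other way: 0.188% and 0.185% of each library's peaks at 0 h and 0.224% to 0.247% later. That difference was -0.0485 percentage points (exact permutation test, two-sided, p = 0.0714), and it turned to 0.00609 above the later libraries when the highest 24643 peaks were kept in each library. With that number of peaks the 0 h libraries held 1.5 more assigned peaks on average, in place of 58.67.

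**Figure D1:**
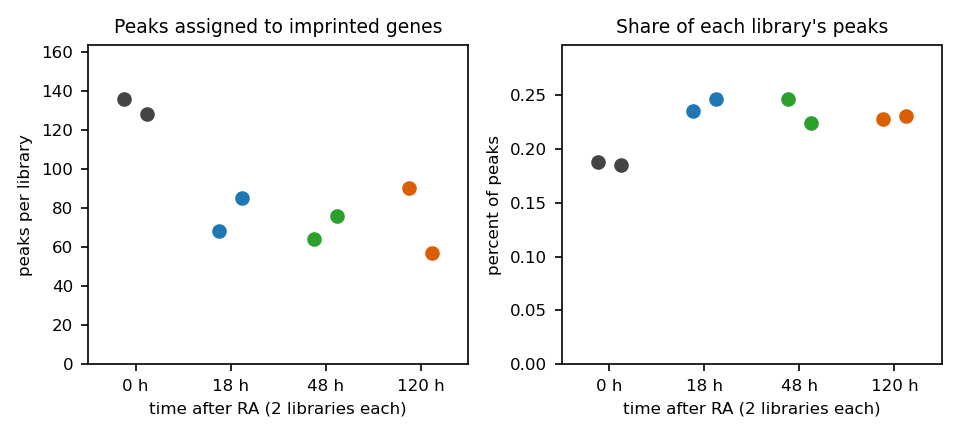
Peaks assigned to the 43 imprinted genes in each of the 8 libraries, by time after RA (x axis), as a number (left) and as a percent of all peaks of the library (right); each point is 1 library. The 0 h libraries held 136 and 128 peaks against 57 to 90 later, and the smallest share of their peaks, 0.188% and 0.185%.

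The number of peaks differed between 0 h and later to an unequal degree among the genes. Usp29, a ubiquitin protease-family gene that starts back to back with Peg3, had 18 and 19 peaks at 0 h and 3 to 8 in the later libraries. Slc22a18, a transporter-like gene, had 8 and 7 at 0 h and 0 to 4 later. Gnas, the stimulatory G protein alpha subunit, and Airn, the non-coding RNA that silences Igf2r, each had 10 in both 0 h libraries, with 5 to 8 later for Gnas and 5 to 10 for Airn. In contrast, Kcnq1ot1, the non-coding RNA that silences the Kcnq1 cluster, had 1 peak in each of the 8 libraries. Nnat and Copg2 had 2 to 3 at 0 h and 2 to 4 later.

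A region was counted at a timepoint when both of its libraries held a peak, and 120 imprinted-gene regions were counted at 1 timepoint or more. At 0 h only were 50 of these (41.7%), beside 49.8% of all 61310 such regions, at all 4 timepoints 36 (30%), beside 25.3%, and at 120 h only 5 (4.17%), beside 2.49%. Regions at gene starts were kept more often than others, as in the rest of the genome. Of 43 imprinted-gene regions within 1000 bp of a start that were called at 0 h, 67.4% were also called at 18 h, 65.1% at 48 h and 62.8% at 120 h, beside 69.0%, 70.3% and 71.8% of all regions. Of 71 elsewhere, 36.6%, 38.0% and 25.4% were called again, beside 30.4%, 25.8% and 22.1%. These shares were not tested.

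**Figure D2:**
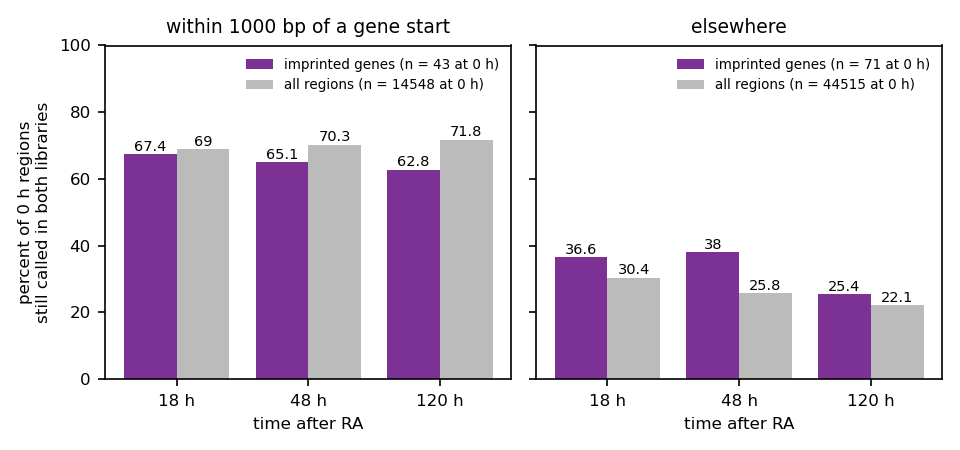
Percent of the regions called at 0 h that were also called in both libraries at 18, 48 and 120 h (x axis), for regions within 1000 bp of a gene start (left) and elsewhere (right); purple bars are the imprinted-gene regions and grey bars all regions. At starts the imprinted-gene bars run from 67.4% to 62.8%, and elsewhere from 36.6% to 25.4%.

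By position of the summit in the GENCODE annotation of GRCm38, 98 of the 163 regions lay in introns, 26 between genes, 17 in coding exons, 16 in UTRs and 6 in non-coding exons. A CpG island was recorded for 33.7% of them, beside 18.1% of all regions, and 31.3% lay within 1000 bp of a gene start, beside 19%. Among regions present in every library the corresponding shares were 69.4% beside 58.6%, and 63.9% beside 57.7%.

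Peaks at the starts of the genes are described class by class, since start regions carry the promoters. Where values follow the word then, they stand for the 18, 48 and 120 h libraries in that order, replicate 1 before replicate 2. In these descriptions, summits and their order between libraries are on the deposited scale. On that scale 92.3% of all 15536 regions were lower at 18 h than at 0 h, 93.3% at 48 h and 44.8% at 120 h (limma adjusted p under 0.05). An order with 0 h highest is thus not particular to these genes, and its share over all regions was not counted. Of the 20 genes with a promoter methylated in oocytes, 18 had a start peak in at least 1 library and 10 in all 8. Of the 9 at loci methylated in sperm, 5 had a start peak and 1 had it in all 8, and of the 14 neighbours 14 had one and 9 in all 8. Over all genes with a start region, 63.2% of 15845 had it in all 8 libraries. The median start summits at 0 h were 181 and 218 in the first class, 98 and 111 in the second, and 217 and 263.5 in the third. These are starts as listed, which need not be the methylated element. For Inpp5f and Grb10 that element lies inside the gene. The listed Mest start had no CpG island recorded, whereas the Mest region at +4606 bp had 1. Gnas had CpG island regions at its listed start and inside the gene, among them those at +43040 and +44864 bp. Methylation was not measured here.

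**Figure D3:**
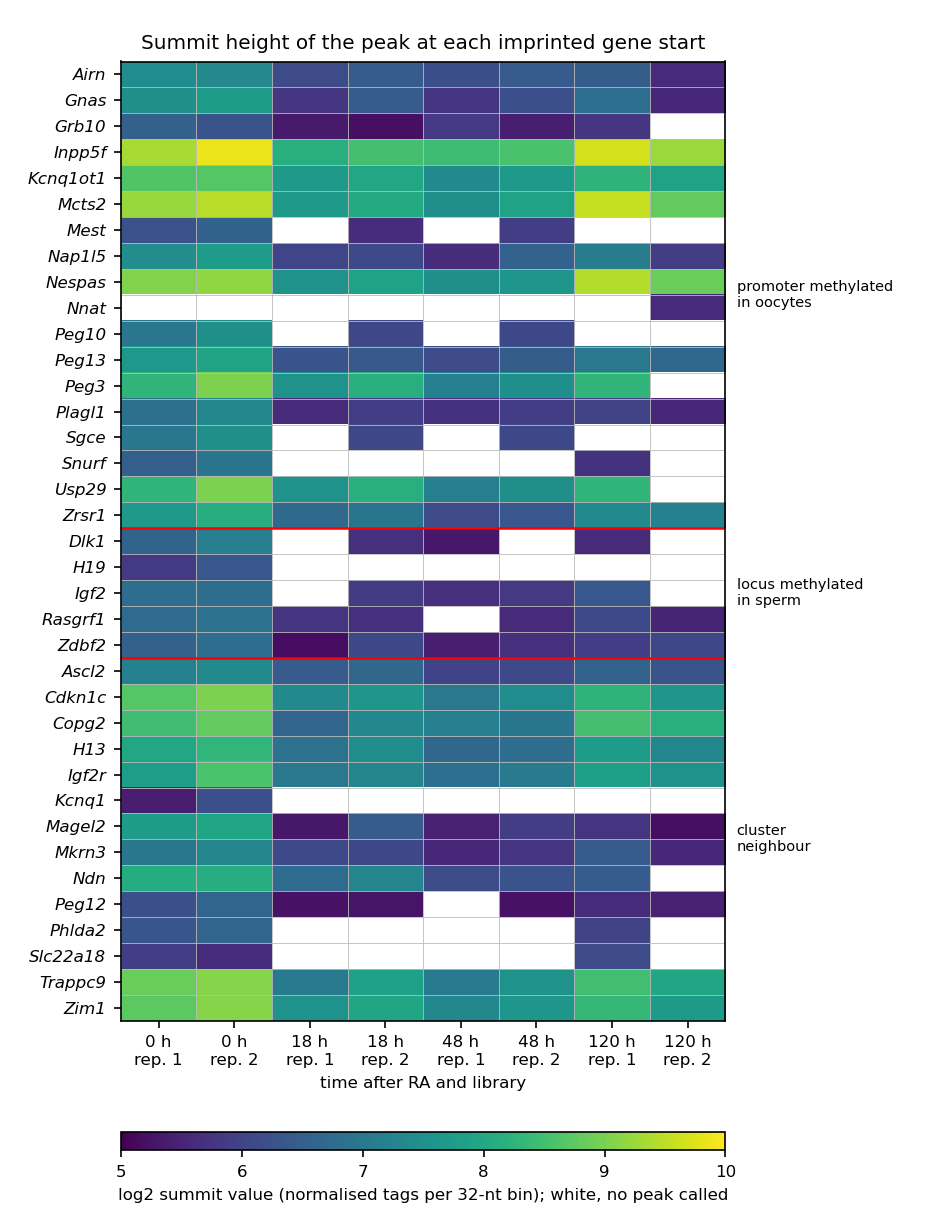
Log2 summit value of the region nearest to the start of each imprinted gene (rows, grouped by class) in the 8 libraries (columns); white cells had no called peak. Inpp5f, Mcts2 and Nespas stand out in the first class at 0 h and 120 h, and H19 and Kcnq1 are filled at 0 h only.

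In the class with promoters methylated in oocytes, the 3 starts with the highest summits at 0 h had a peak in every library. Inpp5f, a phosphoinositide phosphatase, had start summits of 651 and 930 at 0 h, then 280 and 369, 349 and 381, and 803 and 608. Mcts2, a retrogene inside an H13 intron, had 602 and 710, then 208 and 267, 181 and 235, and 754 and 443. Nespas, the antisense RNA of the Gnas locus, had 530 and 574, then 186 and 240, 180 and 199, and 685 and 464. In all 3 the 0 h and 120 h libraries overlapped, and the 18 h and 48 h libraries lay below both. The Inpp5f start is that of the full-length gene, whereas its imprinted form starts from an internal promoter. The Inpp5f region at +77083 bp, within the gene and over a CpG island, was lower, with 240 and 306, then 75 and 110, 77 and 88, and 192 and 137, and both 0 h libraries above every later one. It did not pass the threshold at 120 h against 0 h (log2 difference after centring 0.15, SE 0.20, limma adjusted p = 0.563).

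A second group of these starts was highest at 0 h on the deposited scale, in every comparison of libraries. At the start of Kcnq1ot1 the summits were 401 and 411 at 0 h, then 207 and 254, 165 and 209, and 304 and 235. Gnas had 181 and 216, then 55 and 86, 54 and 75, and 113 and 48. Airn had 172 and 164, then 71 and 86, 74 and 87, and 89 and 49. After centring, the log2 differences from 0 h at 18, 48 and 120 h were 0.44, 0.26 and 0.29 at Kcnq1ot1. They were -0.26, -0.24 and -0.53 at Gnas and 0.16, 0.33 and -0.46 at Airn, and none of these passed the threshold. On the deposited scale, both 0 h libraries of each of these genes were above every later library.

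The same held for 4 further starts. Peg13, a non-coding RNA in an intron of Trappc9, had 203 and 242 at 0 h, then 79 and 84, 72 and 89, and 126 and 103. Zrsr1, a retrogene for a splicing factor in an intron of Commd1, had 208 and 277, then 106 and 123, 71 and 82, and 169 and 146. Nap1l5, a retrogene in an intron of Herc3, had 174 and 218, then 66 and 69, 50 and 95, and 137 and 60. Both 120 h libraries of Zrsr1 lay above those of 18 h and 48 h, whereas those of Nap1l5 spread over most of the later range. Plagl1, a zinc finger transcription factor, had 115 and 159, then 49 and 60, 53 and 60, and 65 and 47.

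Other starts of this class lost the peak in some libraries. Peg3, a zinc finger transcription factor, and Usp29 share a start region with summits of 308 and 516 at 0 h, then 189 and 280, 142 and 180, and 310 in 1 of the 120 h libraries. Grb10, an adaptor that dampens insulin receptor signalling, had 93 and 78, then 41 and 37, 57 and 43, and 55 in 1 of the 120 h libraries. Its internal control element, the sequence printed above, was taller, with 238 and 309, then 68 and 101, 80 and 90, and 130 and 94. The 120 h replicate 2, which held the fewest peaks, was the library without a call at both starts.

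The remaining starts with a call in this class had one in at most 4 libraries. The first was the shared start of Peg10, a retroelement-derived gene of the placenta, and Sgce, encoding epsilon-sarcoglycan. It had 124 and 181 at 0 h, 67 in 1 library at 18 h, 68 in 1 at 48 h and no call at 120 h. The neighbouring Peg10/Sgce region at +886 bp, also with a CpG island recorded, had a peak in all 8 libraries, with 187 and 162 at 120 h. Snurf, the upstream frame of the Snrpn transcript, had 91 and 122 at 0 h and 53 in 1 of the 120 h libraries. At Mest, encoding a hydrolase-family protein, the listed start region had no CpG island recorded. Its summits were 76 and 94 at 0 h, 50 in 1 library at 18 h and 60 in 1 at 48 h. Nnat, encoding the membrane proteolipid neuronatin, had a start peak of 49 in 1 of the 120 h libraries and none in the other 7. At these 4 starts both 0 h libraries or neither held the peak. Snrpn itself, a splicing protein, had no peak within 1000 bp of its listed start, and its assigned peaks were those at Snurf and 1 within the gene.

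The loci methylated in sperm had low starts. H19 had a single region, 126 bp upstream of its start, with summits of 58 and 82 at 0 h and no call in the 6 later libraries, and no assigned region lay more than 1000 bp upstream, the side of its control element. Igf2, the growth factor of this locus, had 112 and 111 at 0 h, 59 in 1 library at 18 h, 52 and 57 at 48 h, and 83 in 1 library at 120 h. Dlk1, a Notch ligand-like transmembrane protein, had 98 and 140, then 51 in 1 library, 40 in 1 and 49 in 1. For all 3 genes the 0 h libraries were above every later value.

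Rasgrf1, a Ras exchange factor, had start summits of 108 and 116 at 0 h, 54 and 52 at 18 h, 49 in 1 library at 48 h, and 70 and 46 at 120 h. Zdbf2, a zinc finger gene whose paternal copy is active, had 93 and 111, then 36 and 68, 43 and 51, and 60 and 67, the only start of this class with a peak in all 8 libraries. Both were highest at 0 h without overlap on the deposited scale. Meg3, the maternally expressed non-coding RNA next to Dlk1, had no peak within 1000 bp of its start. Its region at +2012 bp had 149 and 301, then 115 and 152, 79 and 91, and 160 and 136, where the 0 h libraries overlapped with 18 h and 120 h, and its region at -1700 bp was called at 0 h only, with 89 and 122.

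Among the cluster neighbours, several starts were tall in every library. Trappc9, a subunit of a trafficking complex, had 466 and 542 at 0 h, then 133 and 234, 132 and 187, and 361 and 249. Zim1, a zinc finger gene beside Peg3, had 427 and 549, then 189 and 249, 162 and 199, and 321 and 212. Cdkn1c, a cyclin-dependent kinase inhibitor, had 409 and 520, then 169 and 194, 126 and 172, and 306 and 195. All 3 were highest at 0 h without overlap on the deposited scale.

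Copg2, a coatomer subunit next to Mest, had 353 and 444 at 0 h, then 99 and 162, 142 and 123, and 366 and 280. H13, encoding signal peptide peptidase, had 256 and 313, then 117 and 176, 101 and 110, and 215 and 156. Igf2r, the receptor that clears IGF2 from the cell surface, had 220 and 384, then 129 and 155, 114 and 132, and 225 and 187. At Copg2 and Igf2r the 0 h and 120 h libraries overlapped, and at H13 they did not.

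The neighbours of Snrpn were highest at 0 h on the deposited scale. Ndn, a MAGE-family growth suppressor, had 274 and 279 at 0 h, then 107 and 155, 71 and 78, and 88 in 1 of the 120 h libraries. Magel2, another MAGE-family gene, had 214 and 248, then 40 and 86, 44 and 60, and 54 and 37. Mkrn3, a ubiquitin ligase linked to the timing of puberty, had 124 and 155, then 69 and 67, 47 and 54, and 87 and 47. Both 0 h libraries lay above every later value in these 3 genes. Peg12 had 75 and 99, then 38 and 39, 38 in 1 library, and 50 and 44.

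In the Kcnq1 cluster, Ascl2, a transcription factor of the trophoblast, had start summits of 147 and 169 at 0 h, then 86 and 102, 64 and 69, and 96 and 78. The Kcnq1 start, the promoter of a potassium channel gene, had 42 and 75 at 0 h and no later call. Phlda2 had 81 and 99 at 0 h and 65 in 1 of the 120 h libraries, and Slc22a18 had 61 and 50 at 0 h and 71 in 1 of the 120 h libraries. Of these 4, Slc22a18 was the one whose later value lay above 0 h.

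Summit heights were compared between timepoints in the 15536 regions that had a peak in every library, which included 36 imprinted-gene regions of 163. Since a region needed a peak in every library to be tested, regions that lost their peak are not among them. The log2 heights, each library centred on its median, were fitted with limma over 4 groups, with Benjamini-Hochberg adjustment over all 15536 regions and a threshold of 0.05. Comparisons with 0 h share the 0 h libraries.

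Few of these heights had changed by 48 h post-RA. At 18 h against 0 h, 0 imprinted-gene regions were lower and 0 higher, beside 0.225% and 1.25% of all regions, and 2 lower and 4 higher had an unadjusted p under 0.05. At 48 h against 0 h, 0 were lower and 1 higher, beside 1.51% and 3.26%. At 48 h against 18 h there were 0 in either direction, as there were over all regions (0% and 0%), and 0 lower and 1 higher at an unadjusted p under 0.05. The median log2 differences of the 36 regions were 0.06, -0.04 and -0.06, beside 0.03, 0.03 and 0.01 over all regions. On the deposited scale, with no centring, 33 of the 36 were lower at 18 h and 35 at 48 h and 0 were higher, beside 92.3% and 93.3% of all regions lower and 0.296% and 0.328% higher. Between 18 and 48 h that scale gave 0 lower imprinted-gene regions and 0 higher, beside 0.00644% and 0%.

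By 120 h post-RA, 3 imprinted-gene regions were lower than at 0 h and 10 higher, beside 15.8% lower and 23% higher of all regions. The median log2 difference was 0.18, beside 0.14. On the deposited scale the split turned to 16 lower and 0 higher, beside 44.8% and 0.882%. Without 0 h replicate 1, 1 was lower and 5 were higher, beside 10.4% and 12.5% of all regions. The counts were the same without 120 h replicate 2, beside 8.98% and 8.42%, and quantile normalisation gave 2 and 3, beside 10.2% and 8.74%. From 48 to 120 h, 2 were lower and 8 higher, beside 7.45% and 9.47% of all regions, and 0 and 12 on the deposited scale, beside 0.18% and 23.7%. These calls fell to 0 and 0 without 48 h replicate 2, as did those over all regions (0% and 0%). Without 120 h replicate 2 they fell to 0 and 0, beside 0.972% and 0.38% of all regions, and without 48 h replicate 1 to 0 and 1, beside 1.22% and 0.637%.

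**Figure D4:**
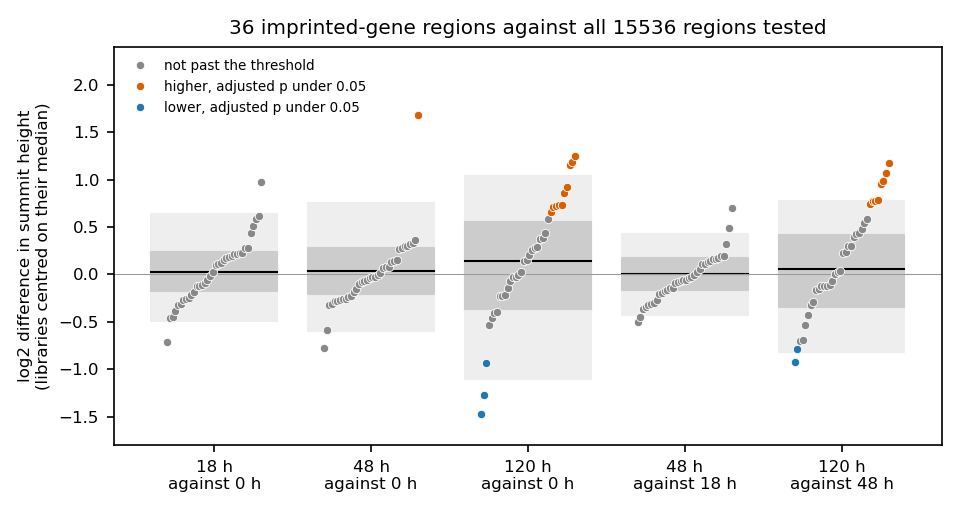
Log2 difference in centred summit height (y axis) for the 36 imprinted-gene regions with a peak in all 8 libraries (points, ordered by value) in 5 comparisons (x axis); the light and dark bands and the line are the 5th to 95th and 25th to 75th percentiles and the median of all 15536 regions. Orange and blue points passed the threshold as higher and lower, with 10 and 3 of them at 120 h against 0 h.

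Magel2 had the largest difference of the 36 imprinted-gene regions at 120 h against 0 h. Its start region (chr7:62376684-62377604, summit in the UTR of its exon), whose values are given above, was lower at 120 h than at 0 h by a log2 difference of -1.48 (SE 0.24, limma adjusted p = 0.000931), and the call held under each of the 17 alternatives that could be fitted, with adjusted p-values up to 0.0109. On the deposited scale the difference was -2.37.

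Both other lower regions were in introns far from a start. A region in Airn at +66753 bp (chr17:12807825-12808470) had 348 and 209 at 0 h, then 78 and 105, 57 and 82, and 113 and 32, with a log2 difference of -1.27 (SE 0.36, limma adjusted p = 0.0139). A region in Usp29 at +83147 bp (chr7:6813336-6814164) had 226 and 227, then 107 and 109, 85 and 87, and 93 and 44, with a log2 difference of -0.93 (SE 0.23, limma adjusted p = 0.00712). In both, every later library lay below 0 h. Each call was lost without 0 h replicate 1 and without 120 h replicate 2. The Usp29 region was also lower at 120 h than at 48 h by -0.93 (SE 0.23, limma adjusted p = 0.0235).

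The region with the highest summits of the imprinted genes lay in an intron of Peg3, at +1747 bp from the listed start (chr7:6727438-6729065). Its summits were 1142 and 1449 at 0 h, then 454 and 745, 409 and 429, and 1338 and 994. The 0 h and 120 h libraries overlapped in deposited height, while the median of all regions was lower at 120 h. Relative to that median the region was higher at 120 h than at 0 h by a log2 difference of 0.73 (SE 0.21, limma adjusted p = 0.0155), which turned to -0.16 on the deposited scale.

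The neighbouring Peg3/Usp29 region at +851 bp, which holds the printed sequence, had 448 and 740 at 0 h, then 245 and 346, 204 and 261, and 532 and 453. Its difference at 120 h was 0.66 (SE 0.23, limma adjusted p = 0.0338), and -0.23 on the deposited scale. Both calls were lost without 0 h replicate 1 and without 120 h replicate 2. Against 48 h the region at +1747 bp was higher at 120 h by 0.96 (SE 0.21, limma adjusted p = 0.0192), and by 1.46 on the deposited scale.

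Of the starts described above, 20 had a peak in every library. After centring, 3 of the 20 were higher and 1 was lower at 120 h than at 0 h. Over the 10016 genes with a start region in every library, 31.1% were higher and 7.75% lower. The median log2 difference was 0.09 at the 20 starts, beside 0.34 over those genes. The 3 higher starts were those of Nespas, Inpp5f and H13/Mcts2. Nespas differed by 0.92 (SE 0.19, limma adjusted p = 0.00359), Inpp5f by 0.74 (SE 0.20, limma adjusted p = 0.0131), and the H13/Mcts2 start by 0.71 (SE 0.19, limma adjusted p = 0.012). On the deposited scale these differences were 0.03, -0.16 and -0.18, so Inpp5f and H13/Mcts2 changed direction. Leaving out single libraries kept the Nespas call. It ended that of Inpp5f without 0 h replicate 1 and without 120 h replicate 2, and that of H13/Mcts2 without 0 h replicate 2. All 3 calls were lost under quantile normalisation, and none of the 3 passed the threshold on the deposited scale. Nespas and H13/Mcts2 were also higher than at 48 h, by 1.07 (SE 0.19, limma adjusted p = 0.0123) and 0.98 (SE 0.19, limma adjusted p = 0.0153).

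Another pair of regions, within introns, was higher at 120 h than at 48 h. The direction was the same on both scales, as at all 8 imprinted-gene regions called higher in this comparison. The Airn/Igf2r region at +9281 bp from the Airn start (chr17:12750043-12750932) had 188 and 196 at 0 h, then 77 and 70, 91 and 97, and 302 and 175. It was higher at 120 h than at 0 h by 1.15 (SE 0.22, limma adjusted p = 0.00212) and than at 48 h by 0.79 (SE 0.22, limma adjusted p = 0.033), or 0.26 and 1.29 on the deposited scale. The Peg10/Sgce region at +886 bp (chr6:4747787-4748396) had 103 and 195, then 49 and 61, 47 and 63, and 187 and 162, with differences of 1.19 (SE 0.24, limma adjusted p = 0.00323) and 1.18 (SE 0.24, limma adjusted p = 0.0168), or 0.30 and 1.68 on the deposited scale. Leaving out any 1 library kept both calls against 0 h, but neither difference against 0 h passed the threshold on the deposited scale.

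The Airn start, in contrast, was lower at 120 h than at 48 h by -0.78 (SE 0.21, limma adjusted p = 0.0284), a difference of -0.28 on the deposited scale that was past the threshold with centring only. The start and the region at +9281 bp of the same gene thus moved in opposite directions over this interval relative to the median, and the difference between them was not tested.

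The other calls lay away from the starts of the imprinted genes. The Trappc9 region at -6412 bp (chr15:73067266-73068221), between genes, had 687 and 687 at 0 h, then 272 and 385, 283 and 270, and 812 and 555. It was higher at 120 h by 0.86 against 0 h (SE 0.21, limma adjusted p = 0.00731, lost without 0 h replicate 2) and -0.03 on the deposited scale, and by 0.78 against 48 h (SE 0.21, limma adjusted p = 0.03). The region listed for Zrsr1 at +10075 bp (chr11:22981711-22982508) lay in a coding exon at the Commd1 start. It had 218 and 254, then 94 and 138, 107 and 117, and 239 and 182, with a difference of 0.72 at 120 h (SE 0.20, limma adjusted p = 0.0142) that was -0.17 on the deposited scale and was lost without either 0 h library or without 120 h replicate 2.

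A region between genes at +15158 bp from Peg10 (chr6:4762284-4762689) was the single call at 48 h against 0 h. It had 52 and 141 at 0 h, then 67 and 74, 106 and 103, and 102 and 119, so the 0 h libraries spanned all later values. Its differences against 0 h were 1.68 at 48 h (SE 0.34, limma adjusted p = 0.0142) and 1.25 at 120 h (SE 0.34, limma adjusted p = 0.0129), with 0.29 and 0.36 on the deposited scale. Without 0 h replicate 1 both calls were lost. The call at 48 h was also lost without either 48 h library, and that at 120 h without 120 h replicate 2.

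Against 48 h, the H13 region at +38315 bp in a UTR (chr2:152707468-152708197) and the Copg2 start were also higher at 120 h. The H13 region had 214 and 312 at 0 h, then 62 and 100, 77 and 82, and 216 and 164. The differences were 0.74 (SE 0.21, limma adjusted p = 0.0365) and 0.77 (SE 0.23, limma adjusted p = 0.037). All 10 calls between 48 and 120 h were lost without 48 h replicate 2 and without 120 h replicate 2, and that at the Nespas start was the one kept without 48 h replicate 1.

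**Figure D5:**
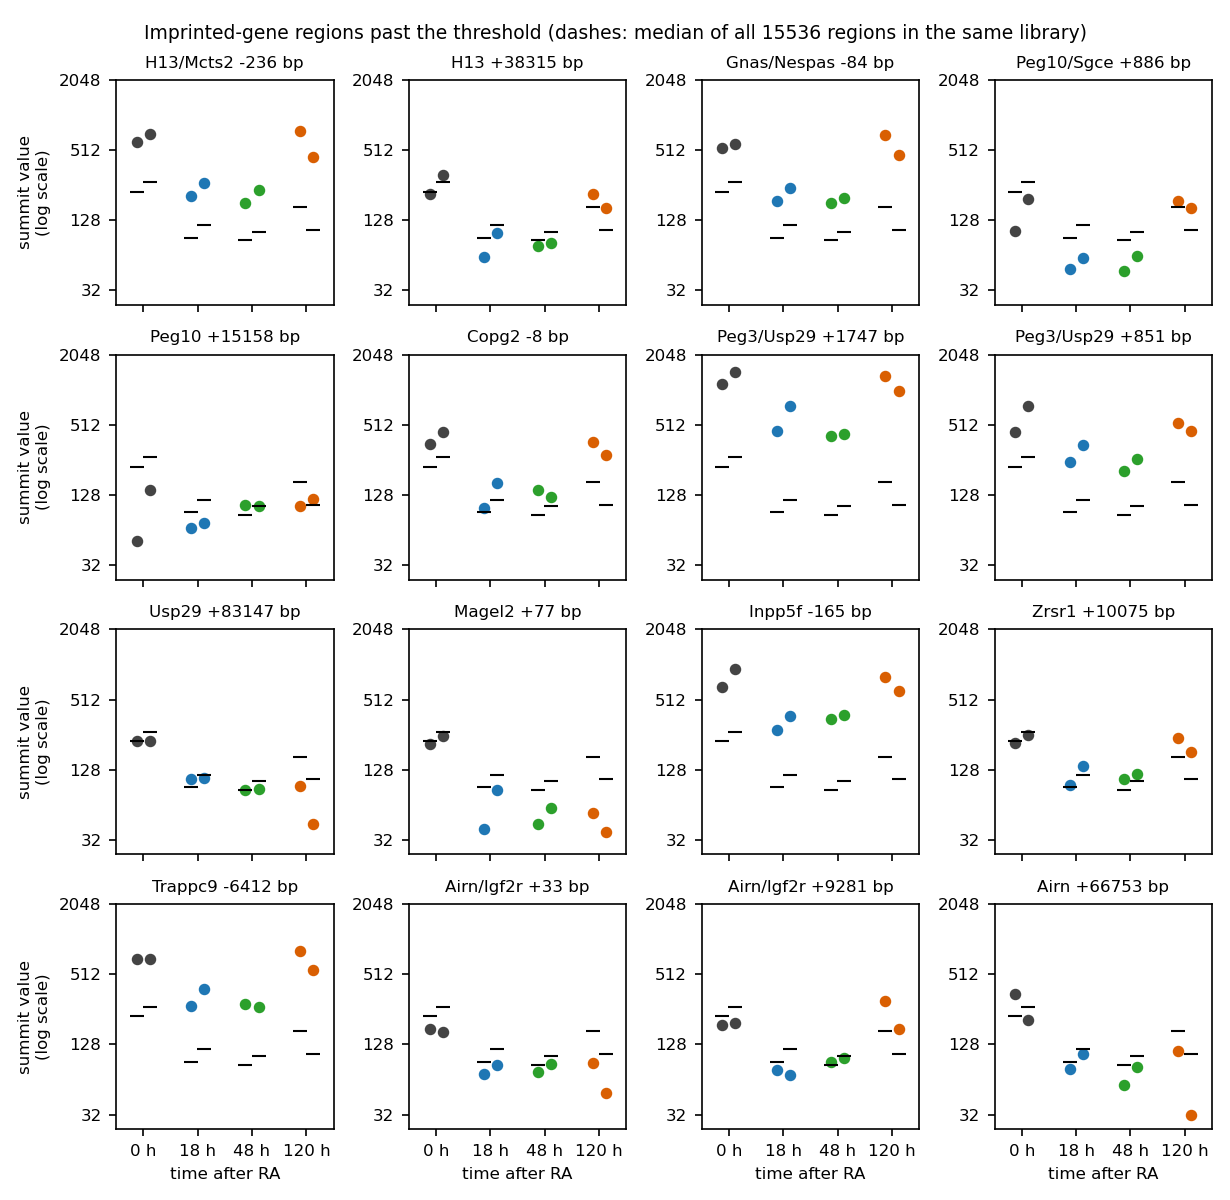
Deposited summit value (y axis, log scale) of the 16 imprinted-gene regions past the threshold in any of the 5 comparisons, by time after RA (x axis); points are the 2 libraries of each timepoint, dashes the median of all 15536 regions in the same library, and distances are from the gene start. Magel2 lies near the median at 0 h and below it at 120 h (54 and 37), and Nespas, with 685 and 464 at 120 h, lies above it throughout.

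Genes that write, read or keep imprints were examined in the same way. Of 25 such genes, 23 had an assigned peak and 12 a start region in all 8 libraries. Of these 12, 0 were lower and 5 higher at 120 h than at 0 h, beside 15.8% and 23% of all regions, or 7.75% and 31.1% of the 10016 genes with a start region in every library. Their median log2 difference was 0.48, beside 0.14 over all regions and 0.34 over those starts. Ctcfl, the testis paralogue of CTCF, had the largest, with start summits of 83 and 107 at 0 h, then 41 and 49, 82 and 52, and 213 and 256. It was higher at 120 h than at 0 h by 2.20 and than at 48 h by 1.34 (limma adjusted p = 0.000402 and 0.0217), and its 120 h libraries lay above all others in deposited height.

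Uhrf1, which brings the maintenance methyltransferase to replicated DNA, differed by 0.93 at 120 h against 0 h (limma adjusted p = 0.00577), Ctcf by 0.64 (limma adjusted p = 0.034), the Polycomb subunit Eed by 0.62 (limma adjusted p = 0.0288) and the chromatin protein Arid4a by 0.58 (limma adjusted p = 0.038). On the deposited scale these differences were 0.04, -0.25, -0.27 and -0.31, so those of Ctcf, Eed and Arid4a changed direction. Arid4b was higher than at 48 h by 0.70 (limma adjusted p = 0.0446). Trim28, Zfp445 and Setdb1, which act with ZFP57, had start regions in all 8 libraries that did not pass the threshold in any comparison. The listed starts of Zfp57, Dnmt1, Dnmt3l, Dnmt3c, Kmt2d and Tet1 had no peak within 1000 bp in any library. Of these symbols, Dnmt3c and Kmt2d were in no peak's gene list, whereas Zfp57 and the others were listed for peaks elsewhere. Symbols were matched exactly, so a gene listed under another name would be missed.

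Of 44 further imprinted genes outside the 43, 40 had an assigned peak and 17 a start region in all 8 libraries. At 120 h against 0 h 5 of the 17 were lower and 4 higher, beside 7.75% and 31.1% of all starts tested. The lower ones were Pon2 (-1.15), Adam23 (-1.09), Nkain3 (-0.97), Ppp1r9a (-0.77) and Gab1 (-0.66), with limma adjusted p-values from 0.00205 to 0.0483. The higher ones were Plagl2 (0.86), Commd1 (0.72), Nap1l4 (0.61) and Chrac1 (0.56), with limma adjusted p-values from 0.0126 to 0.0434, and all 4 changed direction on the deposited scale (-0.04, -0.17, -0.28 and -0.33). Adam23 had start summits of 140 and 168 at 0 h, then 57 and 96, 50 and 56, and 49 and 31, with both 0 h libraries above every later one. Tnfrsf23, with 83 and 130 at 0 h and 76 and 71 at 48 h, was higher at 48 h than at 0 h by 0.89 after centring (limma adjusted p = 0.0332) and -0.50 on the deposited scale, and it was lower at 120 h than at 48 h by -0.72 (limma adjusted p = 0.0409). The Commd1 region is the one also listed for Zrsr1.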

How the data were processed

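ATAC-seq libraries from 8 mice, 2 at each of 4 timepoints, were analysed from a table of called peaks. Per the methods and the submitters' processing notes, the authors aligned reads to mm10 with BWA 0.7.12 (mem), removed duplicates, kept unique pairs, extended alignments and counted them in 32-nt bins, reduced the libraries to an equal number of tags, and called peaks in each library separately with MACS2 2.1.0, without a control. The deposited signal values are the coverage at the summit and its mean over the peak; read numbers per library were not used here. Extension can widen peaks, and a peak missing from a library can mean a signal just under the caller's limit.

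The 43 genes, the lists of regulators and markers and the tests were chosen with earlier results of these data known. All 43 genes are accounted for; values in every library are given for the region nearest to each gene start within 1000 bp and for every region past the threshold, and from the other lists at most 10 genes past it. Peaks overlapping by 1 bp were merged (Python 3.11.15, pandas 2.3.3). Log2 of the highest summit per region, each library centred on its median, was fitted with limma 3.58.1 (R 4.3.3) in the 15536 regions that had a peak in every library, with no block, Benjamini-Hochberg adjustment and a threshold of 0.05. The study compared timepoints with read counts; these were not used here, so heights took their place and the centring stands in for size factors. On simulated data for 18 h against 0 h with 15536 regions, of which 200 were changed, the fit recovered 68% at a log2 change of 1 and 100% at 2 and 3. The p-values rest on 2 mice per timepoint. Peak ends lay within the GRCm38 chromosomes for all regions, and 88.6% of 19191 genes matched by symbol had a RefSeq start within 1000 bp of the implied one. Alternatives were other scalings, the mean signal, a replicate block, a minimum summit of 50, imputed missing heights, 100 bp windows around summits, and each library left out. Track address files were not used.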

Additional observations from a re-analysis of the deposited data

How the results depend on the processing

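Of the 43 imprinted genes, 31 were accessible at all 4 timepoints, with 24 for summits of at least 50, 26 for an equal number of the highest peaks, 37 for a peak in either replicate, and 31 to 33 with each library left out. Over all genes, 15054 of 20673 were, with 12926 of 19557, 13669 of 17196 and 17419 of 21490 in the first 3 of these settings. The genes at 0 h only numbered 6 for summits of at least 50, 0 for an equal number of peaks, 1 for a peak in either replicate and 1 to 2 with each library left out, in place of 2. Over all genes these numbers were 3504, 370, 1739 and 1850 to 3104, in place of 2666. With an equal number of peaks the difference in the share of peaks reversed to 0.00609 percentage points. TGCCGC was found in 27.0% of the imprinted-gene regions over whole regions, in place of 19%, and in 16.6% of all regions. Without scaling, the lower imprinted-gene regions numbered 33, 35 and 16 at 18, 48 and 120 h against 0 h and 0 at 120 h against 48 h, and the higher ones 0 at 48 h and 0 at 120 h against 0 h. Over all regions 92.3%, 93.3%, 44.8% and 0.18% were lower and 0.328% and 0.882% higher. Quantile normalisation gave 3 higher at 120 h against 0 h, and 0 lower and 1 higher at 120 h against 48 h, beside 1358, 60 and 69 of all 15536 regions. A minimum summit of 50, which tests fewer regions, gave 1 lower at 120 h against 0 h, and 0 lower and 4 higher at 120 h against 48 h. These are of 26 imprinted-gene regions, beside 1682, 779 and 623 of all 11657 regions. With missing heights set to the lowest summit, which tests 120 imprinted-gene regions, against 0 h 2 were lower and 5 higher (18 h), 3 and 6 (48 h), or 21 and 10 (120 h), and 4 higher at 120 h against 48 h. Of all 61310 regions fitted that way, 646 were lower and 1672 higher (18 h), 883 and 2178 (48 h), or 9427 and 3709 (120 h). At 120 h against 48 h 794 of them were higher. Leaving out each library gave 0 to 1 higher at 18 h, 0 to 1 higher at 48 h, 1 to 4 lower and 5 to 10 higher at 120 h against 0 h, and 0 to 3 lower and 0 to 8 higher at 120 h against 48 h. The cause of these shifts was not tested where the setting does not itself show it.

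Replicate numbers did not pair the libraries: the correlations of deviations from the group means ranged from -0.224 to 0.248, and some were below 0.1. The fit with a replicate block gave 3 lower and 10 higher at 120 h against 0 h, 3 and 8 at 120 h against 48 h, and 1 higher at 48 h against 0 h. Over all 15536 regions it gave 2550 and 3729, 1270 and 1632, and 579. With the replicate block and no scaling, 32, 35 and 14 were lower at 18, 48 and 120 h against 0 h, 0 were higher at 48 h or at 120 h, and 0 were lower at 120 h against 48 h. Over all regions 14040, 14309 and 6389 were lower, 46 and 123 higher, and 20 lower at 120 h against 48 h. Of 423 repeats of the 24 calls at single regions, 307 kept direction and call, 104 kept direction only, and 12 reversed. The reversals were at 120 h against 0 h without scaling, with and without the block: -0.17 at Zrsr1 (+10075 bp), -0.033 at Trappc9 (-6412 bp), -0.18 at H13/Mcts2, -0.16 at Peg3/Usp29 (+1747 bp), -0.23 at Peg3/Usp29 (+851 bp) and -0.16 at Inpp5f. Quantile normalisation ended the calls at 120 h against 0 h at Nespas, Inpp5f, H13/Mcts2 and both Peg3/Usp29 regions. It also ended those at Trappc9 (-6412 bp), Zrsr1 (+10075 bp) and Airn (+66753 bp). Heights near the caller's limit, about 24 to 25, cannot show a further decrease.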

Other observations

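Imprinted-gene regions called at 120 h only numbered 5, and they lay in 5 genes. Gnas at +49280 bp, in an intron, had summits of 230 and 132 at 120 h, 53 in 1 library at 18 h, 62 in 1 at 48 h and no call at 0 h. Mest at -1698 bp, in an intron of the longer Mest transcript, had 132 and 53 at 120 h and no call in the other 6 libraries, while the Mest region nearest to the start had no call at 120 h and the Mest CpG island region at +4606 bp had 77 and 66 at 120 h and 97 and 118 at 0 h. Kcnq1 at +309386 bp had 96 and 65, and Airn at +45057 bp had 40 and 44, both with no call before 120 h. Igf2 at +1622 bp had 60 and 54 at 120 h and 62 in 1 library at 0 h. These regions lacked a peak in other libraries and were not in the fit of heights. With missing heights set to the lowest summit they were among 120 imprinted-gene regions fitted.

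Some regions inside imprinted clusters listed none of the 43 genes. Between Dlk1 and Meg3, a region with no listed gene (chr12:109520106-109520759) had summits of 277 and 226 at 0 h, then (18, 48 and 120 h) 87 and 100, 55 and 68, and 112 and 44, with both 0 h libraries above every later one. It was taller at 0 h than the start of Dlk1 (98 and 140). Within the span of the Snrpn cluster, from Snrpn to Peg12, 24 of 36 regions listed none of the 43 genes. Of these 24, 1 had a peak in all 8 libraries (chr7:60244169-60244619), with 188 and 192, then 75 and 96, 40 and 55, and 98 and 47. Between H19 and Igf2, 1 of 7 regions listed neither gene, with 54 and 37 at 0 h and no later call.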
